A study of Mus musculus with 6 samples.

Results

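The transcripts examined here encode 10 proteins that act below or beside EphA4, a receptor tyrosine kinase that binds ephrins on neighbouring cells. They were chosen by symbol, and all 10 of 10 symbols were found among the 55418 of the table. All of them passed the filter on low counts, which kept 15199 genes for the test. They comprise the guanine exchange factors Ngef (ephexin), Vav2 and Vav3, the Rac GTPase-activating chimaerins Chn1 and Chn2, the adaptors Nck1 and Nck2, the Rap regulator Sipa1l1 (SPAR), the kinase gene Cdk5 and the sheddase gene Adam10. RNA came from MOC2, a mouse oral squamous carcinoma line that carries no papillomavirus. Of 6 libraries, 3 are labelled as coming from cells edited at EphA4, all of the H3 clone and thus of 1 clone, and 3 from control CRISPR cells, called control knockout cells in the protocol. Both groups were untreated, were grown in medium with EGF, hydrocortisone and insulin, were collected after thawing and 2 passages, and carry the batch label 1. Whether samples of 1 group were separate cultures is not stated in the labels, and the p-values cover the spread among these samples alone, which may be technical.

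When an ephrin clusters EphA4, the kinase phosphorylates itself and recruits proteins that reshape the actin skeleton. Ephexin favours RhoA over Rac and is itself a substrate of Cdk5 in neurons, Vav proteins activate Rac and promote internalization of the receptor complex, chimaerins switch Rac off, and Nck joins phosphotyrosines to actin nucleation. SPAR inactivates Rap, and Adam10 cuts ephrins and so lets the bound membranes part. Most of this wiring was worked out in neurons, where EphA4 repels axons and retracts dendritic spines.

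Library totals ran from 35807059 to 37174736 counts in the knockout-labelled libraries and from 35115926 to 41775031 in the control libraries. Transcripts of the targeted gene were higher, not lower, in the libraries labelled EphA4 knockout. Epha4 had 97.4, 103 and 98.1 CPM (counts per 1000000 counts of a library, scaled with TMM factors) there, against 51.4, 59.8 and 54.0 CPM in control (log2 fold change 0.86, SE 0.06, adjusted p = 2.1e-06 in edgeR). A count over a whole gene shows neither whether the edited sequence is present nor whether protein is made, so each direction below is that of the knockout-labelled libraries and does not stand for lost Epha4 transcript. Whether the group labels were exchanged, which would turn every direction below, was not tested. The labelled cell type was checked against 14 squamous carcinoma and keratinocyte markers, of which 12 were tested, 8 being higher and 4 lower. Krt8 averaged 1628 CPM of the library totals in the knockout-labelled and 1343 CPM in the control libraries, and Epcam 623 CPM in the knockout-labelled and 956 CPM in the control libraries. Krt5 and Trp63, basal squamous markers, were at or near 0 in both groups (at most 0.018 CPM on average). Other keratins of the list were low too. Krt14 averaged 1.82 CPM in the knockout-labelled and 3.73 CPM in the control libraries and was lower. Krt17 averaged 0.27 CPM in the knockout-labelled and 0.76 CPM in the control libraries and was lower. Krt6a averaged 1.90 CPM in the knockout-labelled and 0.27 CPM in the control libraries and was higher. In the same order, knockout-labelled then control, Itga6 averaged 577 and 400 CPM, Itgb4 267 and 224 CPM and Dsp 281 and 157 CPM. Sfn averaged 108 and 56.7 CPM and Krt19 663 and 1702 CPM. Fibroblast and pericyte markers summed to 2.01 to 2.25 CPM in the knockout-labelled libraries and to 51.0 to 54.2 CPM in control. All 7 tested ones were lower, with Lum at 0 throughout. Of the 7, Col1a1, Col3a1, Pdgfrb, Dcn, Fap and Rgs5 passed the filter only through the control libraries, which fixed their direction. Col1a2, not tested, averaged 0.263 CPM in the knockout-labelled and 0.044 CPM in the control libraries. Processed pseudogenes took 1.41% of the counts of EphA4 knockout replicate 3, against 0.255% to 0.258% for the other knockout-labelled libraries and 0.293% to 0.307% for control. Without that library no effector changed its call, and the log2 fold changes of the called ones moved by less than 1.5 times.

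The effectors split into 6 that changed and 4 that did not pass. Of the 10, 1 rose (Vav2) and 5 fell (Ngef, Nck2, Cdk5, Vav3 and Nck1) at an adjusted p of 0.05 in edgeR's quasi-likelihood test with Benjamini-Hochberg adjustment over all genes. The same test called 71.5% of all tested genes, 32.7% as higher and 38.8% as lower, so the 6 of 10 effectors called are no larger a share than the background. Ranges of the 2 groups were apart for 7 of the 10 (those 6 and Adam10), against 76.1% of all tested genes. The median log2 fold change over the effectors was -0.33, and over all tested genes it was -0.04. In bulk RNA, fewer cells with a transcript and less transcript per cell cannot be told apart.

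**Figure D1:**
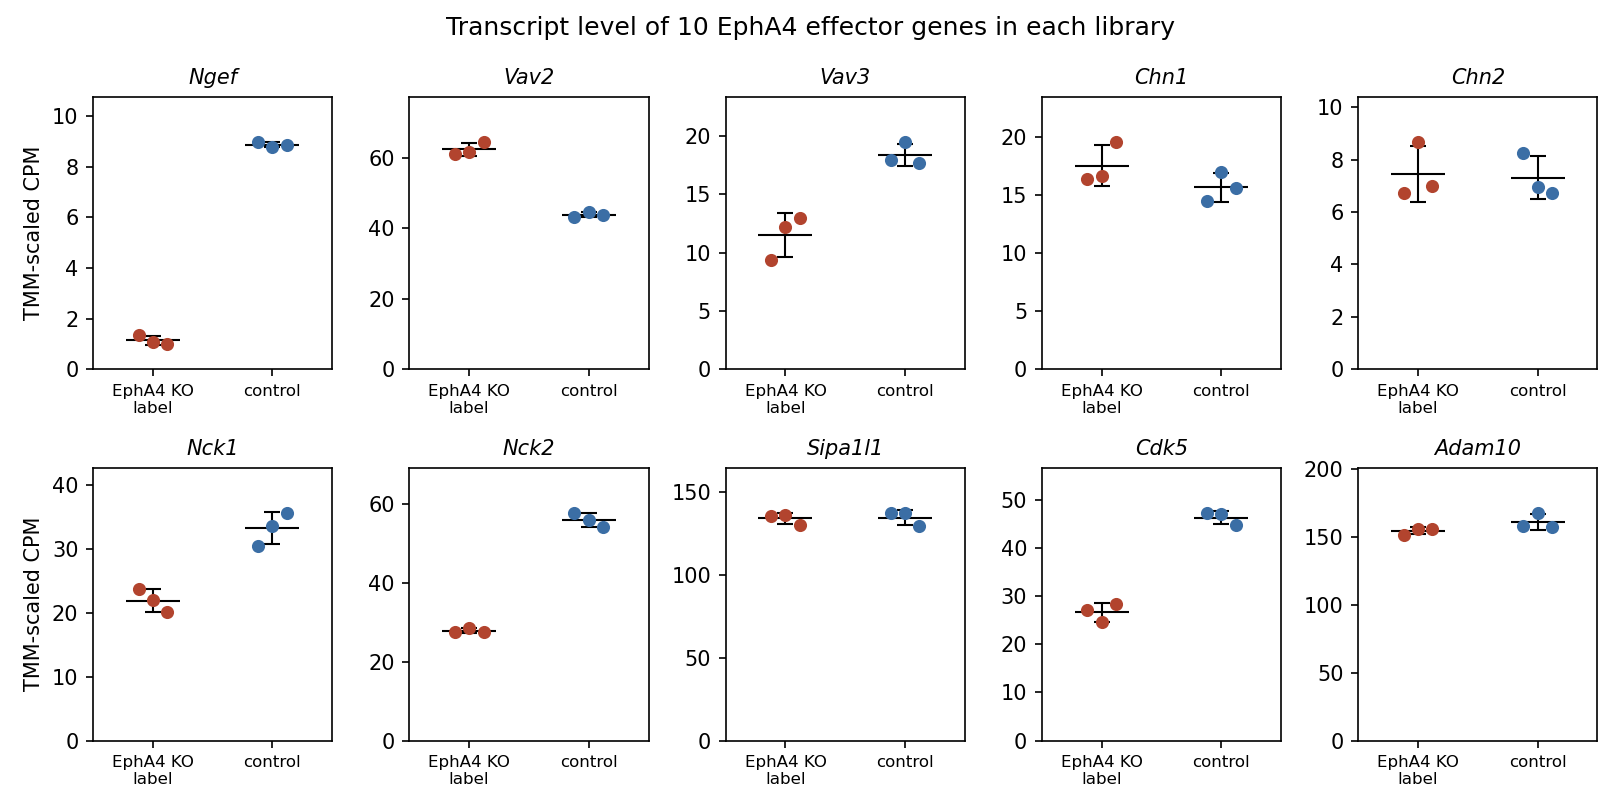
Level of each effector gene in every library, in TMM-scaled CPM from 0 upward, with knockout-labelled libraries on the left and control libraries on the right of each panel; points are libraries, horizontal bars the mean and whiskers the SD (n = 3). The groups stand apart for Ngef, Vav2, Vav3, Nck1, Nck2 and Cdk5, barely for Adam10, and overlap for Chn1, Chn2 and Sipa1l1.

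The largest change was in Ngef, on chromosome 1, the gene of ephexin, an exchange factor that binds EphA4 and acts on RhoA, Rac1 and Cdc42. Ngef had 48, 40 and 37 counts in the knockout-labelled libraries and 333, 310 and 369 counts in the control libraries. Scaled, this was 1.34, 1.08 and 1.01 CPM in the knockout-labelled libraries against 8.98, 8.78 and 8.85 CPM in control, with every knockout-labelled library far below every control library. Ngef was thus 7.73-fold lower (log2 fold change -2.95, SE 0.20, adjusted p = 1.5e-06 in edgeR), a fall that 8.12% of all tested genes matched or exceeded with a call. Of its merged exon length, 3.15% overlaps Neu2 on the opposite strand, and the strand setting of the counting is not given in the sources used here. Markers of neurons and glia, in which Ngef is best known, summed to 51.0 to 59.7 CPM in the knockout-labelled libraries and 109 to 114 CPM in control. Among these Map2 averaged 1.10 CPM in the knockout-labelled and 27.2 CPM in the control libraries, and Tubb3 5.91 CPM in the knockout-labelled and 43.1 CPM in the control libraries. In all, 2 of the 4 tested markers fell and 1 rose (Mbp), and the neuronal marker Rbfox3 had 0 counts in every library. Their part in the result was not tested.

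The window around the RefSeq start of Ngef, 250 bases before to 50 after, is shown because this gene fell most. It holds 4 CpG dinucleotides and is 58.3% G and C. Each promoter window was searched on both strands for the GC box GGGCGG, the E-box CACGTG, the AP-1 site TGANTCA and the ETS site CCGGAAG, of which no 2 overlapped in a window printed here, and capitals mark a match. Of all 32851 RefSeq windows of this length, 35.7% hold the GC box, 7.15% the E-box, 7.81% the AP-1 site and 8.86% the ETS site. Ngef has 1 GC box and none of the other 3. Sequences are from RefSeq, build GRCm38.p6, an earlier build than the one named for the counts, and counts over a gene do not show which start was used. Of the 10 effectors, 9 have an entry there, and Cdk5 is named only.
Ngef, chr1:87573821-87574120, minus strand: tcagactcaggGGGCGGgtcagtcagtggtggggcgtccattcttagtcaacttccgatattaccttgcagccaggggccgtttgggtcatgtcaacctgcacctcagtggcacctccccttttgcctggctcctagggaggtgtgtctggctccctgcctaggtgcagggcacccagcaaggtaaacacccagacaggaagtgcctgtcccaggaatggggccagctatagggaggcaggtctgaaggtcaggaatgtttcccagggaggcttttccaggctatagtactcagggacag

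Ngef belongs to a family of GTPase exchange factors whose members went both ways. Of 9 genes listed beside it, the other ephexins with Tiam1, Trio, Kalrn and Vav1, 8 were tested. Of these, 4 rose and 4 fell (median log2 fold change -0.23), while 71.5% of all tested genes were called. Arhgef26 averaged 6.72 ± 0.81 CPM in the knockout-labelled libraries and 0.51 ± 0.16 CPM in control (SD, n = 3 each), a log2 fold change of 3.70. Arhgef19 averaged 3.58 ± 0.57 CPM in the knockout-labelled and 23.0 ± 1.31 CPM in the control libraries and fell by 2.68 on the log2 scale. Arhgef15, an exchange factor that limits synapse number below EphB2 in neurons, had 5, 1 and 3 counts in the knockout-labelled libraries against 25, 46 and 65 counts in control, and fell (log2 fold change -3.78). Kalrn, a spine-forming exchange factor in neurons, fell as well (log2 fold change -2.16). Arhgef15 and Kalrn passed the filter only through the control libraries, so their falls follow in part from the filter. With a filter of 5 CPM in 3 libraries, falls in this list numbered 2. Vav1, the blood cell member of the Vav family, had 0 counts in every library.

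The 2 Vav genes expressed in these cells went in opposite directions. Vav2, on chromosome 2, had 60.9, 61.6 and 64.4 CPM in the knockout-labelled libraries, against 43.3, 44.5 and 43.8 CPM in control. All knockout-labelled libraries were above all control libraries, and Vav2 was 1.42-fold higher (log2 fold change 0.51, SE 0.05, adjusted p = 1.2e-05 in edgeR). Vav3, on chromosome 3, had 9.40, 12.2 and 12.9 CPM in the knockout-labelled libraries against 17.9, 19.5 and 17.7 CPM in control, every knockout-labelled library being below the control libraries. It was 1.59-fold lower (log2 fold change -0.67, SE 0.13, adjusted p = 0.0013 in edgeR). Neither passed a test against a fold of 1.5. A rise at least as large as that of Vav2 was called for 21.1% of all tested genes. The RefSeq window of Vav2, shown as that of the effector that rose, has 2 CpG dinucleotides and 1 GC box.
Vav2, chr2:27427559-27427858, minus strand: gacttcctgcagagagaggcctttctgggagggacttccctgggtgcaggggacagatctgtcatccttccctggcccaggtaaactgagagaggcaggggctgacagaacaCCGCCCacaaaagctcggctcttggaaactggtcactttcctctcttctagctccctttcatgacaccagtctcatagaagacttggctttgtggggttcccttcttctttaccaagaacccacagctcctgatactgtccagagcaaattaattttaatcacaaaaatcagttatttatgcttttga

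The balance of the pair can be read within each library, where scaling between libraries plays no part. There were 6.48, 5.04 and 4.98 counts of Vav2 for each count of Vav3 in the knockout-labelled libraries and 2.41, 2.28 and 2.47 in the control libraries. The mean log2 ratio was 2.45 ± 0.21 in the knockout-labelled and 1.26 ± 0.06 in the control libraries (SD, n = 3 each), a difference of 1.19 with no overlap. The exact two-sided permutation test gave p = 0.1, the smallest that 3 against 3 allows, and 0.15 after Benjamini-Hochberg adjustment over 3 paralog pairs. Per kilobase of merged exons, Vav2 made up 82.5 ± 2.08% of the Vav2 and Vav3 level in the knockout-labelled libraries and 67.5 ± 0.90% in control. The summed level of both was 10.4, 10.9 and 11.5 CPM per kilobase in the knockout-labelled libraries against 9.24, 9.68 and 9.28 CPM per kilobase in control, each knockout-labelled library lying above the control ones.

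Both Nck adaptor genes fell. Nck2, on chromosome 1, had 27.4, 28.6 and 27.6 CPM in the knockout-labelled libraries and 57.6, 56.0 and 54.1 CPM in control. The groups were well apart, and Nck2 was 2.01-fold lower (log2 fold change -1.004, SE 0.05, adjusted p = 3.5e-07 in edgeR), a fall matched or exceeded by 20.1% of all tested genes. Nck1, on chromosome 9, had 23.6, 22.0 and 20.0 CPM in the knockout-labelled libraries against 30.5, 33.6 and 35.6 CPM in control. All 3 knockout-labelled libraries lay below the control libraries, and Nck1 was 1.52-fold lower (log2 fold change -0.60, SE 0.09, adjusted p = 0.00022 in edgeR), without passing a test against a fold of 1.5. Their summed level was 11.1, 11.0 and 10.4 CPM per kilobase in the knockout-labelled and 19.3, 19.6 and 19.6 CPM per kilobase in the control libraries.

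Nck1 and Nck2 encode closely related proteins that can stand in for each other in mouse development. There were 0.863, 0.770 and 0.727 counts of Nck1 per count of Nck2 in the knockout-labelled libraries and 0.530, 0.600 and 0.657 in control. The log2 ratio averaged -0.35 ± 0.13 in the knockout-labelled and -0.75 ± 0.16 in the control libraries (SD, n = 3 each). This difference of 0.40 had no overlap between the groups (exact two-sided permutation p = 0.1, the smallest possible, and 0.15 adjusted over the 3 pairs). The RefSeq windows of the pair are shown because these genes fell together. That of Nck2 is 76.7% G and C with 37 CpG dinucleotides and 3 GC boxes, and the upstream one of 2 Nck1 starts is 69.3% G and C with 33 CpG dinucleotides and 4 GC boxes. Over all windows the median number of CpG dinucleotides is 7, and neither window holds the E-box, AP-1 or ETS letters. Effectors that were not called have such windows too. Adam10 has 32 CpG dinucleotides and 3 GC boxes, and the upstream starts of Chn1 and Sipa1l1 have 43 and 48 CpG dinucleotides with 2 and 1 GC boxes. The other Nck1 start has 2 CpG dinucleotides and 0 GC boxes.
Nck2, chr1:43445501-43445800, plus strand: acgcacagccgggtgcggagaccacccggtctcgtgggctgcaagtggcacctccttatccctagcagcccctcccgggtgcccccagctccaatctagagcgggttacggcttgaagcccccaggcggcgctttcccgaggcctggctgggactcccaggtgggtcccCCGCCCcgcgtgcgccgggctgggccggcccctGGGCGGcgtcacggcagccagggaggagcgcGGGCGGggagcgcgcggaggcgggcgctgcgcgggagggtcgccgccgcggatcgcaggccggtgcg
Nck1, chr9:100546085-100546384, minus strand: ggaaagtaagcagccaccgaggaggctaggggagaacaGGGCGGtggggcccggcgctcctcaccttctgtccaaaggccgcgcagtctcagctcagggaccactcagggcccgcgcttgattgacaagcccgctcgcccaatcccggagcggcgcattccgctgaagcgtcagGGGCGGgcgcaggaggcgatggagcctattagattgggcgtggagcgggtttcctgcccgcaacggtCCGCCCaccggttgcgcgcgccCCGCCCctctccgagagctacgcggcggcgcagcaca

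**Figure D2:**
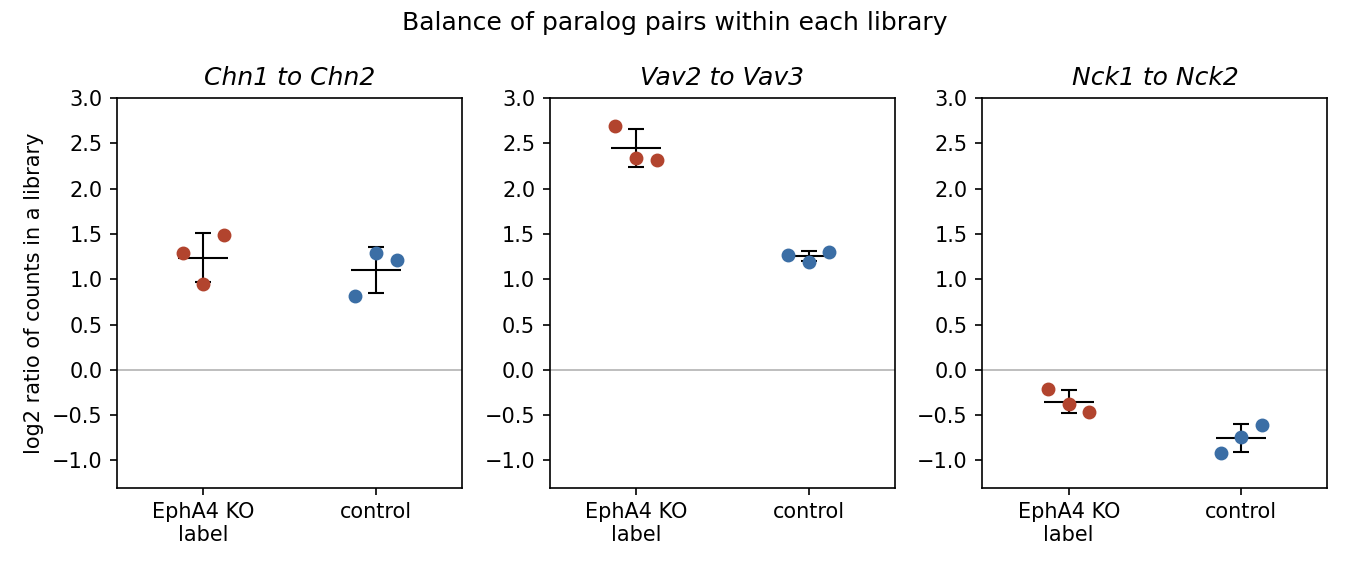
Log2 ratio of counts of 2 related effectors within each library, knockout-labelled libraries left and control libraries right; points are libraries, horizontal bars means and whiskers SD (n = 3). The ratio of Vav2 to Vav3 averaged 2.45 in the knockout-labelled and 1.26 in the control libraries, that of Nck1 to Nck2 -0.35 in the knockout-labelled and -0.75 in the control libraries, and the groups overlap only for Chn1 to Chn2.

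Genes of the actin machinery that Nck recruits were mixed. Of 15 listed genes 14 were tested, and 4 rose, 5 fell and 5 did not pass, with a median log2 fold change of 0.00. Over all tested genes 71.5% were called. Wipf1, a partner of the nucleation promoter N-WASP, averaged 28.4 ± 1.06 CPM in the knockout-labelled libraries and 47.4 ± 2.75 CPM in control (SD, n = 3 each) and fell by 0.74 on the log2 scale. Arpc2, a subunit of the actin-nucleating Arp2/3 complex, fell by 0.54. Nckap1, a subunit of the WAVE complex, rose by a log2 fold change of 0.54. Wipf3, at 0.15 ± 0.11 CPM in the knockout-labelled and 0.53 ± 0.11 CPM in the control libraries, was called lower (log2 fold change -1.85), a call that did not hold without EphA4 knockout replicate 1 or 2 or control replicate 2 or 3 (log2 fold changes -1.46, -1.66, -1.71 and -1.75). Only its control counts took Wipf3 past the filter. Falls in this list numbered 2 or 3 without 1 of those same libraries, and rises numbered 2 with no filter on low counts.

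Cdk5, on chromosome 5, encodes a kinase that is active with a p35-type partner and phosphorylates ephexin after EphA4 is engaged in neurons. Cdk5 had 27.1, 24.6 and 28.4 CPM in the knockout-labelled libraries, against 47.3, 47.1 and 44.7 CPM in control. It was lower in every knockout-labelled library, by 1.74-fold (log2 fold change -0.80, SE 0.07, adjusted p = 6.9e-06 in edgeR). Of its activators, Cdk5r1, which encodes p35, had 103, 119 and 86 counts in the knockout-labelled libraries against 36, 27 and 46 counts in control and rose (log2 fold change 1.57). Cdk5r2, which encodes p39, had 0 counts in all knockout-labelled libraries and 30, 17 and 23 in control. It was at least 22.5-fold lower when the knockout-labelled group is set to 3 counts in all. Only its control counts took it past the filter. The 9 genes listed with Cdk5 were all called, 4 higher and 5 lower (median log2 fold change -0.21), in a comparison that called 71.5% of all tested genes. Among them Cdk5rap3 averaged 44.5 ± 1.61 CPM in the knockout-labelled and 127 ± 5.39 CPM in the control libraries (SD, n = 3 each), and Cables1 fell by 1.56 on the log2 scale.

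**Figure D3:**
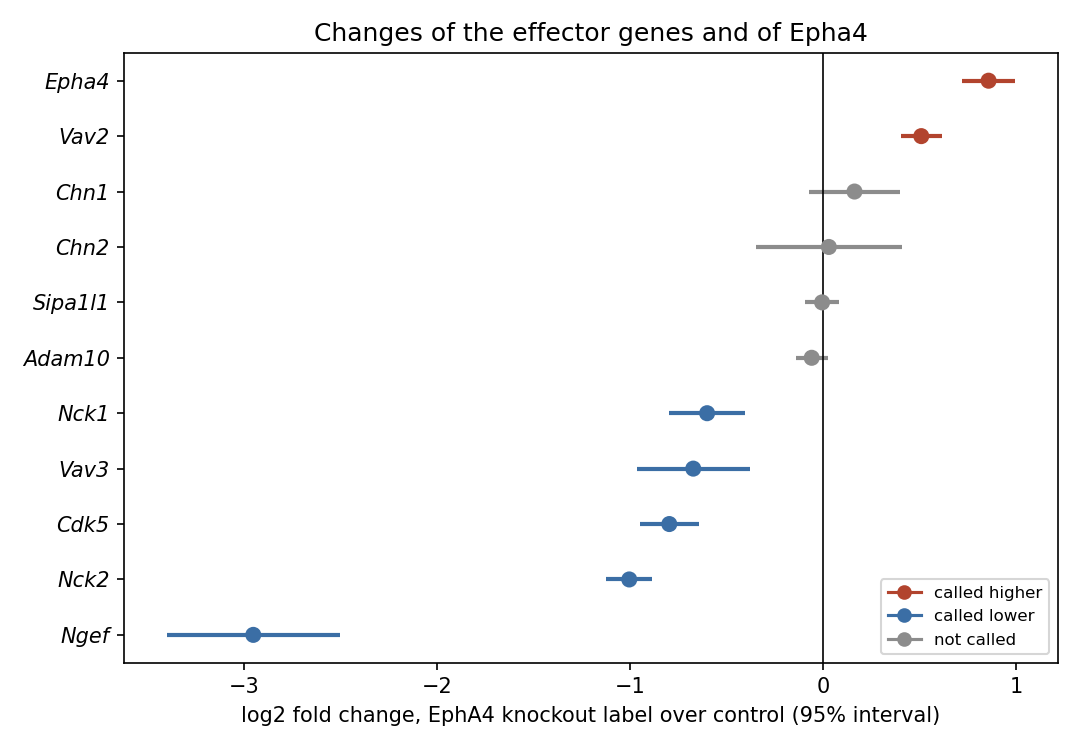
Log2 fold change of the 10 effector genes and of Epha4, knockout label over control, with 95% intervals from edgeR; red marks genes called higher, blue genes called lower and grey genes not called. Ngef stands lowest at -2.95, Vav2 is the 1 effector called higher, and the intervals of Chn1, Chn2, Sipa1l1 and Adam10 include 0.

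The chimaerin genes did not pass the test. Chn1, on chromosome 2, whose product binds EphA4 and shuts off Rac, had 16.4, 16.7 and 19.6 CPM in the knockout-labelled libraries and 14.5, 17.0 and 15.6 CPM in control. The groups overlap, and the log2 fold change of 0.16 has a 95% interval of -0.07 to 0.40 (adjusted p = 0.19 in edgeR). It was 0.25 without control replicate 2 and 0.0938 with no filter on low counts, and was called in neither. Chn2, on chromosome 6, its beta relative, had 6.71, 8.67 and 6.99 CPM in the knockout-labelled libraries against 8.25, 6.94 and 6.74 CPM in control. Here too the groups overlap, with a log2 fold change of 0.03 and an interval of -0.35 to 0.41 (adjusted p = 0.88 in edgeR), so a change of up to about that size in either direction was not detectable. Their log2 ratio averaged 1.24 ± 0.27 in the knockout-labelled and 1.10 ± 0.26 in the control libraries (SD, n = 3 each, exact two-sided permutation p = 0.6). Antisense or opposite-strand models overlap 11.8% of the merged exons of Chn1 and 10.6% of those of Chn2. Each gene makes long and short isoforms, with and without an SH2 domain, which a count per gene does not separate.

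Sipa1l1, on chromosome 12, was among the most even effectors. It had 136, 136 and 130 CPM in the knockout-labelled libraries and 137, 137 and 130 CPM in control, with full overlap. The log2 fold change was -0.01 with a 95% interval of -0.09 to 0.08 (adjusted p = 0.90 in edgeR), and it was 0.026 with RLE factors. Of its relatives, Sipa1l2 had 36, 39 and 36 counts in the knockout-labelled libraries against 773, 637 and 761 counts in control, so that it fell by 4.23 on the log2 scale, while Sipa1l3 averaged 270 ± 6.82 CPM in the knockout-labelled and 180 ± 16.5 CPM in the control libraries (SD, n = 3 each) and rose by 0.59. Sipa1l3 was named after its values were seen. Sipa1, another Rap regulator, averaged 34.4 ± 2.13 CPM in the knockout-labelled and 97.8 ± 4.56 CPM in the control libraries (SD, n = 3 each) and fell by 1.51. Rap1gap, which inactivates Rap1, fell by 2.60 and the Rap GTPase gene Rap2b rose by 0.62. Over the list of SPAR relatives and Rap genes, 6 of 10 rose and 3 fell (median log2 fold change 0.19), while 71.5% of all tested genes were called.

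Adam10, on chromosome 9, had the highest level of the 10 per length and did not pass. It had 152, 156 and 156 CPM in the knockout-labelled libraries, against 158, 168 and 158 CPM in control. The knockout-labelled libraries were all below the control libraries by a narrow margin, with a log2 fold change of -0.06 and a 95% interval of -0.14 to 0.02 (adjusted p = 0.17 in edgeR). With no filter on low counts it was called lower (log2 fold change -0.13, adjusted p = 0.027 in edgeR). That setting moved every effector down and not Adam10 alone, such as Sipa1l1 from -0.006 to -0.0727 and Vav2 from 0.51 to 0.44. Genes that steer or resemble Adam10 were counted in the same way: of 16 listed, 15 were tested, and 3 rose, 9 fell and 3 did not pass (median log2 fold change -0.65). Of all tested genes 71.5% were called, 32.7% as higher and 38.8% as lower. Of the TspanC8 tetraspanins that carry Adam10 through the cell, Tspan17 had 110, 108 and 115 counts in the knockout-labelled libraries against 778, 631 and 674 counts in control and fell by 2.59 on the log2 scale. Adam19, a related sheddase, had 0 counts in the knockout-labelled libraries and 80, 83 and 108 in control, at least 87.3-fold lower when the group is set to 3 counts in all. The other listed Adam genes, named after their values were seen, went both ways. Adam12 averaged 124 ± 5.39 CPM in the knockout-labelled and 36.6 ± 0.11 CPM in the control libraries (SD, n = 3 each) and rose (log2 fold change 1.76). Adam9, Adam15 and Adam17 fell (log2 fold changes -0.84, -1.32 and -0.31). The membrane inhibitor gene Reck had 2, 16 and 6 counts in the knockout-labelled libraries against 119, 80 and 91 counts in control and fell (log2 fold change -3.53). The secreted inhibitor gene Timp3 had 3 counts over the knockout-labelled and 34 over the control libraries, 11.0-fold lower (exact 95% interval from counting alone, 3.44 to 55.7). Timp1, the inhibitor gene of the list with the highest level, named after its values were seen, averaged 72.0 ± 3.26 CPM in the knockout-labelled and 67.2 ± 2.39 CPM in the control libraries (SD, n = 3 each) and did not pass (log2 fold change 0.10, adjusted p = 0.11 in edgeR). Fibroblast and pericyte markers were lower beside Reck and Timp3 (7 of 7 tested, with Dcn and Fap at 0 counts in the knockout-labelled libraries). Most of those 7, like Adam19, Reck and Timp3, passed the filter only through the control libraries, so their falls follow in part from the filter. The part of these markers in the result was not tested.

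Kinase and adaptor genes around the receptor changed in both directions. Of 16 listed genes 15 were tested, and 8 rose and 7 fell (median log2 fold change 0.12), while 71.5% of all tested genes were called. These 15 calls became 14 with RLE factors or DESeq2 and 12 to 14 with a library left out. Src family genes went both ways. Src averaged 203 ± 7.80 CPM in the knockout-labelled and 149 ± 1.99 CPM in the control libraries and rose by 0.44, and Yes1 rose by 0.55, both named after their values were seen. Fyn and Lyn fell, Fyn averaging 25.3 ± 1.79 CPM in the knockout-labelled and 55.3 ± 2.13 CPM in the control libraries and Lyn 23.6 ± 1.27 CPM in the knockout-labelled and 57.1 ± 1.96 CPM in the control libraries (SD, n = 3 each). The Ras GTPase-activating gene Rasa1 averaged 136 ± 7.82 CPM in the knockout-labelled and 66.0 ± 2.40 CPM in the control libraries and rose by a log2 fold change of 1.04, and the kinase gene Abl2 rose by 0.96. Of the small GTPases and their kinase effectors, 5 of 15 rose, 7 fell and 3 did not pass (median log2 fold change -0.07). Pak2, a Rac effector kinase, rose by 0.74, and of the cofilin phosphatase genes Ssh2 rose by 0.79 while Ssh1 and Ssh3 fell by 0.83 and 0.50. The 3 GTPase genes themselves were singled out after their values were seen. Rhoa averaged 408 ± 4.91 CPM in the knockout-labelled and 562 ± 15.6 CPM in the control libraries and fell by 0.46. Rac1 averaged 339 ± 15.3 CPM in the knockout-labelled and 372 ± 6.42 CPM in the control libraries, and Cdc42 284 ± 3.32 CPM in the knockout-labelled and 298 ± 11.2 CPM in the control libraries (SD, n = 3 each). Rac1 was called lower (log2 fold change -0.13, adjusted p = 0.015 in edgeR), but not without any 1 of the 6 libraries (log2 fold changes -0.13 to -0.04) and not with RLE factors, and Cdc42 did not pass (log2 fold change -0.07, adjusted p = 0.12 in edgeR). Among the gamma-secretase genes, whose product cleaves EphA4 within the membrane, and Eph phosphatases, 4 of 7 tested rose and 2 fell (median log2 fold change 0.20). Ncstn fell by 0.74 and Psenen by 0.35, and the phosphatase gene Ptpn1 rose by a log2 fold change of 0.37. Psenen did not pass without control replicate 3 (log2 fold change -0.26), which left 1 fall, and with no filter 2 genes of this list rose.

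**Figure D4:**
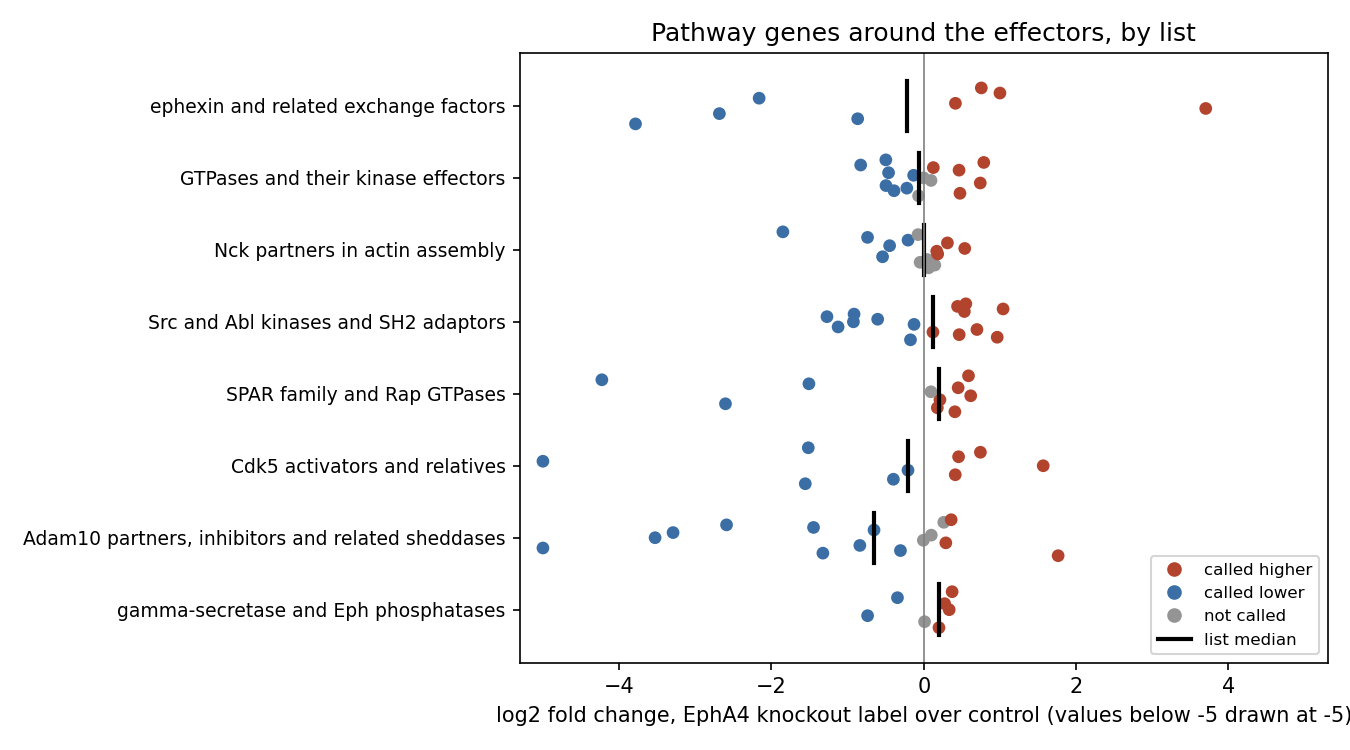
Log2 fold change, knockout label over control, of the 93 tested genes of 8 lists around the effectors; each point is a gene, red if called higher, blue if lower and grey if not called, and black bars are list medians. Points lie on both sides of 0 in each list, and the medians run from -0.65 for the Adam10 list to 0.20 for gamma-secretase and Eph phosphatases.

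Over all 98 pathway genes, 93 were tested, 38 rose, 42 fell and 13 did not pass, with a median log2 fold change of 0.00. Of the tested ones 86.0% were called, against 71.5% of all tested genes, and no test of that difference was made. The 5 genes not tested were Vav1, Was, Grb10, Tspan10 and Ptpro.

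Apart from the count ratios of the paralog pairs, which are not corrected for length, levels of different effectors were set side by side only per kilobase of merged exons. In the knockout-labelled libraries the order was Adam10 (31.5 ± 0.52 CPM per kilobase), Cdk5 (12.3 ± 0.89), Sipa1l1 (10.5 ± 0.27), Vav2 (9.01 ± 0.27), Nck2 (6.25 ± 0.15), Nck1 (4.57 ± 0.38), Chn1 (2.76 ± 0.28), Vav3 (1.92 ± 0.31), Chn2 (1.28 ± 0.18) and Ngef (0.29 ± 0.05, SD, n = 3 each). In control it was Adam10 (32.8 ± 1.14 CPM per kilobase), Cdk5 (21.4 ± 0.65), Nck2 (12.5 ± 0.39), Sipa1l1 (10.5 ± 0.34), Nck1 (6.93 ± 0.53), Vav2 (6.34 ± 0.09), Vav3 (3.06 ± 0.16), Chn1 (2.47 ± 0.19), Ngef (2.27 ± 0.03) and Chn2 (1.26 ± 0.14). No neighbours in the order overlapped in the knockout-labelled libraries, whereas Nck1 with Vav2, and Chn1 with Ngef, overlapped in control. Vav2 thus stood above both Nck genes in the knockout-labelled libraries and below or level with them in control, and Ngef stood last in the knockout-labelled libraries and level with Chn1 in control.

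The genes whose pattern over the 6 libraries was most like that of Ngef were Cuedc1, Zeb1 and Tmem176a. Likeness was the distance between log2 CPM values centred on each gene's mean, 0.206, 0.242 and 0.259 on that scale, among 9343 protein-coding genes whose average log2 CPM in edgeR, which follows the mean level rather than the mean of the logs, was 3 or more. Zeb1 passed this limit through its level in the control libraries. Cuedc1 averaged 8.53 ± 0.81 CPM in the knockout-labelled libraries and 58.2 ± 0.56 CPM in control (SD, n = 3 each). Zeb1, a repressor of epithelial genes, averaged 1.84 ± 0.13 CPM in the knockout-labelled and 14.7 ± 1.24 CPM in the control libraries, and Tmem176a 46.2 ± 1.21 CPM in the knockout-labelled and 335 ± 15.3 CPM in the control libraries. Their direction follows from the choice by likeness to Ngef.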

How the data were processed

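For 6 polyA libraries the authors deposited raw, unnormalized counts in 1 table with a row per gene symbol. The submitters' processing notes name STAR and the genome build GRCm39. For the counting tool, strand setting and annotation, nothing is given in the sources used here. All 55418 symbols occur in GENCODE mouse release M21, which is on an earlier build, so only chromosomes, gene types, exon overlaps and merged exon lengths were taken from it.

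Genes were filtered with filterByExpr (15199 of 28042 with any count). Arhgef15, Kalrn, Wipf3, Cdk5r2, Adam19, Reck and Timp3 would not have passed on their knockout-labelled libraries alone. After TMM scaling, edgeR 4.0.16 in R 4.3.3 gave two-sided tests of group, the single term (glmQLFit, glmQLFTest), with Benjamini-Hochberg adjustment over all tested genes and a threshold of 0.05. One count equals 0.0239 to 0.0285 CPM. The SE was taken from the log2 fold change and the square root of F. Floors and counting intervals (exact binomial) cover counting error only, and marker sums use library totals. Paralog ratios used a pseudocount of 0.5 count and exact permutation tests (scipy 1.17.1). Figures were drawn with matplotlib 3.10.9. The edgeR script was tested on simulated counts with 200 changed genes, balanced between rises and falls. Far more genes were called here, so that test does not cover scaling when most genes change.

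Members, gene lists and tests were chosen with earlier results of these data known. Genes were named by rule: Epha4, all 10 effectors, up to 4 called genes per list by size of change, and the 3 genes nearest to the effector with the largest change. One gene that this rule picks is not reported here. A few more were named after their values were seen. Library pairs within a group differed beyond the noise of counting (4.63 to 35.1 chi-square units per degree of freedom), so none was merged. Alternatives were RLE factors, library totals, no filter, 5 CPM in 3 libraries, DESeq2 1.42.0, limma-voom 3.58.1, a replicate block, an adjusted p of 0.01, glmTreat against a fold of 1.5, and each library left out.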

Additional observations from a re-analysis of the deposited data

How the results depend on the processing

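Epha4, Chn1, Ngef, Nck2 and Cdk5 kept their direction and their side of the threshold in all 15 alternatives, Ngef with log2 fold changes of -3.05 to -2.81. Against a fold of 1.5 (glmTreat), 0 effectors were higher and 3 lower, since Vav2 (0.51), Vav3 (-0.67) and Nck1 (-0.60) did not pass, 10 pathway genes were higher and 24 lower, and over all tested genes 2006 were higher and 3467 lower, against 4963 and 5904 otherwise. Effectors near 0 changed sign without being called: Sipa1l1 to 0.026 with RLE factors, 0.01 with 5 CPM in 3 libraries, 0.026 with DESeq2 and 0.0126 to 0.0724 with a library left out, and Chn2 to -0.0368 with no filter and -0.0619 to 0.17 with a library left out. Adam10 was called lower with no filter (-0.13) and ran from -0.0348 to 0.0007 with a library left out. Cdc42, outside the effectors, ran from -0.0516 to 0.0021 with a library left out. The Chn1 to Chn2 difference ran from -0.0123 to 0.28 with a library left out, that of Vav2 to Vav3 from 1.07 to 1.26 and that of Nck1 to Nck2 from 0.32 to 0.48. With a replicate block 1 effector was higher and 5 lower, as without it. Sample numbers did not pair the libraries: deviations of same-numbered libraries, knockout-labelled with control, correlated at -0.003, 0.029 and 0.008 across genes, and over all genes there were 10339 calls with the block against 10867 without it. Of the other counts, 24 of the 270 recomputed ones moved by over 1.5 times, most under glmTreat. The causes of these shifts were not tested. Depth limits Chn2 and Ngef most, at 240 to 320 and 37 to 48 counts in the knockout-labelled libraries.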
